A study of Drosophila melanogaster with 20 samples.

Results

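The windows of chromosome 4 were all rows of the salivary gland profiles that the files place on this chromosome. There were 255 of them, of 27657 windows in the series, and all 255 carried a value in each of the 4 profiles. Their centres ran from 25000 to 1295000 in the dm3 assembly in steps of 5 kb, and each window was 50 kb wide, so that neighbouring windows shared most of their DNA. The comparison sets were 23683 windows of the large arms (2L, 2R, 3L, 3R and X) and 1740 windows of the 6 Het scaffolds, which hold assembled pericentric and Y-linked sequence.

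Chromatin immunoprecipitation followed by sequencing (ChIP-seq) was done for 2 histone marks, H3K27me3 (Cell Signaling Technology antibody) and H3K27me2 (Millipore antibody), in salivary glands of 3rd instar Drosophila melanogaster larvae raised at 23 °C. One group was the y,w stock (yw), used as the wild type, and the other was the SuUR mutant stock, which lacks the Suppressor of Under-Replication. For every profile a single ChIP library was set against a single input, which makes 8, and the embryo libraries of the series were not analysed here. There were no replicates, so the values below are descriptions of 4 profiles without a test, and overlapping windows were not counted as independent.

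Chromosome 4 is the small dot chromosome of the fly, in which features of heterochromatin, such as H3K9 methylation and the protein HP1, run through a region with many active genes, and which is bound along its length by the protein POF. Di- and trimethylation of H3K27 are both written by Polycomb repressive complex 2 through its subunit E(z): the trimethyl form marks Polycomb-silenced domains and is bound by the Polycomb protein, while the dimethyl form is spread broadly over silent chromatin. SUUR slows replication forks in late-replicating heterochromatin of polytene chromosomes, which leaves such regions with fewer DNA copies, and in its absence they are copied more fully. None of the under-replicated regions listed by the study lies on chromosome 4. In bulk glands, a mark carried by fewer cells or chromatids and less of the mark on each cannot be told apart.

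All values are log2 ratios of ChIP to input after the normalization described next, so 0 need not mark equal shares of the reads. It is a point on a shared scale, on which the median over all windows was −0.08 for H3K27me3 and 0.02 for H3K27me2. Within each mark the profiles of yw and SuUR had been quantile normalized against each other, and the sorted values of the genotypes were equal over all windows. A loss in one set of windows was therefore balanced by a gain elsewhere, and differences between genotypes are relative to the rest of the assembly. Between neighbouring windows of chromosome 4 the median step was 0.055 for H3K27me3 in yw and 0.050 in SuUR, and 0.045 and 0.050 for H3K27me2, against 0.045 to 0.055 in the arms. The 95th percentile of the steps for H3K27me3 was 0.277 in yw and 0.267 in SuUR, above the 0.165 and 0.20 of the arms. For H3K27me2 it was 0.142 and 0.177, against 0.145 and 0.17. The largest single H3K27me3 step was 0.855 in yw and 0.665 in SuUR, below the 3.045 and 1.435 of the arms, which hold far more windows. The depth behind each window is unknown.

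H3K27me3 lay lower on chromosome 4 than on the large arms in both genotypes, and the gap was wider in the SuUR mutant. The median over the 255 windows was −0.170 in yw, with windows from −1.005 to 0.890, and −0.245 in SuUR, with windows from −0.765 to 1.055. The arm medians were −0.100 in yw and −0.060 in SuUR, so chromosome 4 lay 0.07 and 0.185 log2 units below them. The yw gap depended on the windows taken: it was −0.12 when windows of the study's listed H3K27me3 regions were left out on chromosome 4, and −0.025 when they were left out on the arms as well, where the SuUR gap was −0.20. No single arm reached so low: the lowest arm median was that of X, at −0.14 in yw and −0.12 in SuUR. H3K27me3 was above 0 in 70 windows of chromosome 4 (27.5%) in yw and in 55 windows (21.6%) in SuUR. The shares were 32.9% in yw and 40.7% in SuUR for arm windows, and 70.6% and 15.2% for Het windows.

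How chromosome 4 stood to the euchromatic arms and the pericentric scaffolds thus depended on the genotype for H3K27me3, though its median was below that of the arms in both. In yw the Het scaffolds had a median of 0.220, and chromosome 4 lay 0.39 below them and close to the arms. In SuUR the Het median was −0.240, and chromosome 4 differed from it by −0.005, a gap that changed sign when means were compared (0.086) or when the unplaced scaffold U was counted with the Het scaffolds (0.060). On a scale of percentile ranks within each profile, chromosome 4 averaged 41.2 in yw and 36.0 in SuUR, the arms 47.4 and 53.1, and the Het scaffolds 70.2 and 31.8. The similar H3K27me3 level in SuUR was thus reached from a much higher yw level on the Het scaffolds than on chromosome 4.

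H3K27me2 on chromosome 4 resembled the arms, not the Het scaffolds. Its median was −0.040 in yw, with windows from −0.455 to 0.450, and 0.020 in SuUR, with windows from −0.770 to 0.365. The arms stood at 0.005 in both genotypes, while the Het scaffolds stood at 0.270 in yw and 0.280 in SuUR. Chromosome 4 was therefore 0.31 and 0.26 below the Het scaffolds. Against the arms the gap was −0.045 in yw and 0.015 in SuUR, which became −0.005 and 0.075 with the listed regions left out on both, and the SuUR gap turned to −0.0071 when means were compared and to −0.012 with ratios averaged on a linear scale.

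**Figure D1:**
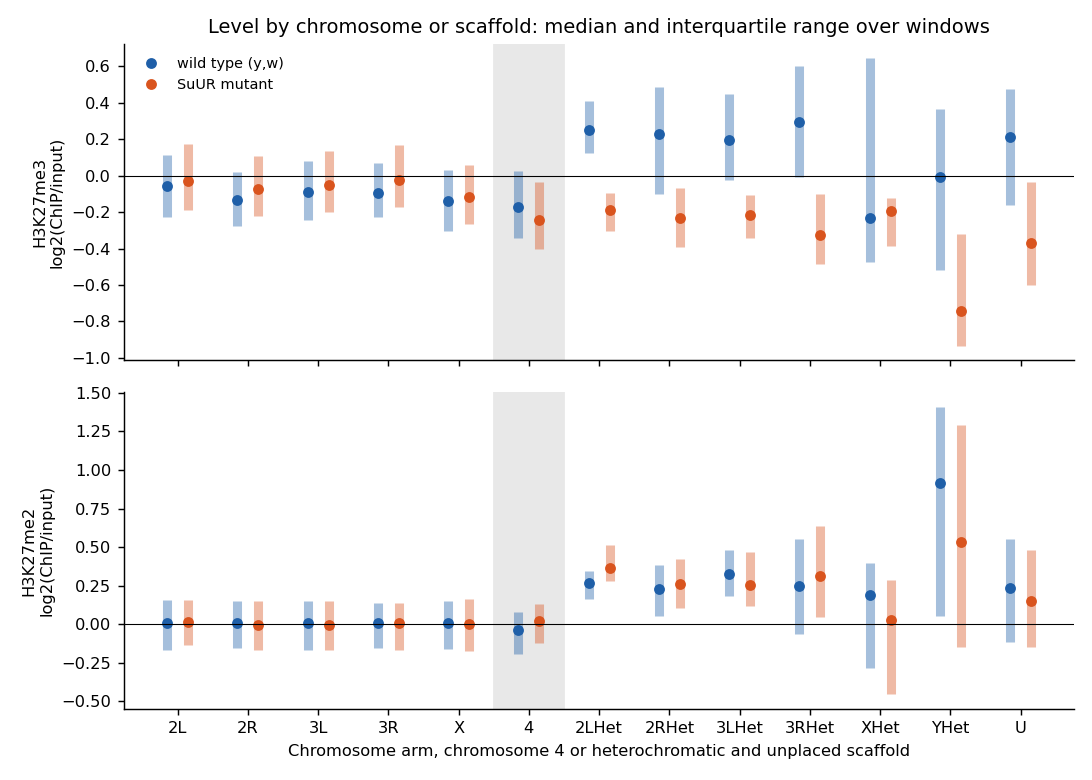
H3K27me3 and H3K27me2 log2 ChIP/input by chromosome arm, scaffold and chromosome 4, in yw and SuUR, as medians over windows with bars for the quartiles. The H3K27me3 median of chromosome 4 was −0.170 in yw and −0.245 in SuUR, while that of the Het scaffolds together went from 0.220 to −0.240.

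Because chromosome 4 is short, it was also set beside 90 non-overlapping stretches of 255 consecutive windows on the large arms. In SuUR none of the 90 stretches had a median H3K27me3 below the −0.245 of chromosome 4, 1 stretch equalled it and 89 lay above, up to 0.105. In yw 18 stretches were lower than chromosome 4 and 71 were higher. For H3K27me2, 26 stretches were lower in yw and 57 in SuUR. Chromosome 4 thus stood at the bottom of the arm stretches for H3K27me3 in SuUR and inside their range in the other 3 profiles.

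**Figure D2:**
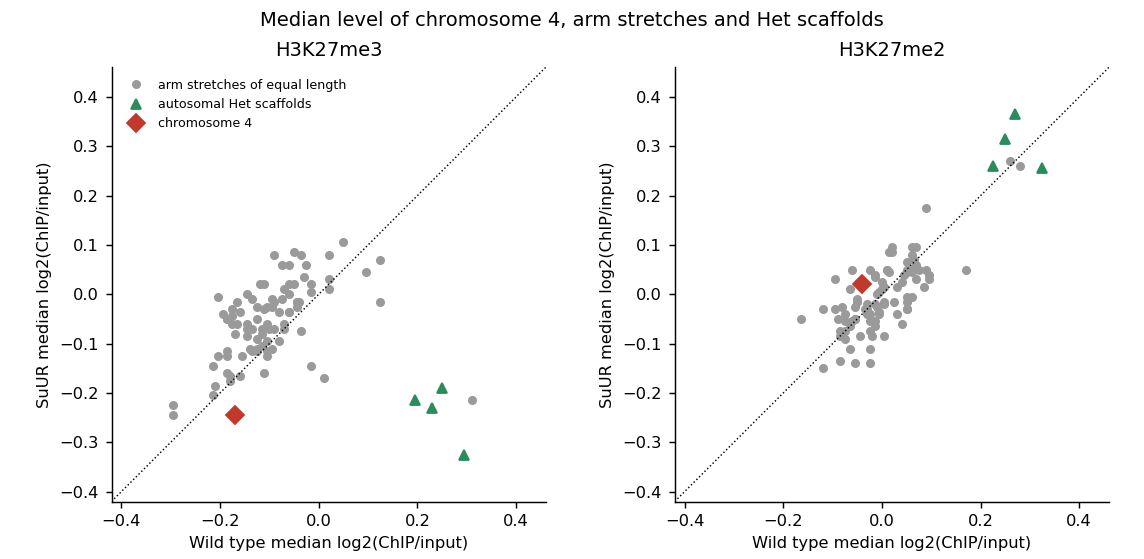
Median log2 ChIP/input in SuUR (vertical axis) against yw (horizontal axis) for 90 arm stretches of 255 windows (grey circles), the 4 autosomal Het scaffolds (green triangles) and chromosome 4 (red diamond), with a dotted line where the genotypes are equal. For H3K27me3, 89 stretches are higher in SuUR than the −0.245 of chromosome 4, and the Het scaffolds lie far to the right of it at similar heights.

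The study had drawn 2 kinds of region from earlier microarray profiles of H3K27me3 made with another antibody (Abcam), not from the profiles described here. SuUR-sensitive regions (SSRs) lost the mark in the mutant, and SuUR-non-sensitive regions (SNRs) kept it. Chromosome 4 holds 1 SSR and 4 SNRs of these lists, numbered here in order of position. Windows that overlapped an SNR made up 22.0% of the chromosome (56 windows), against 11.0% of arm windows, and windows that overlapped an SSR made up 9.41% (24 windows), against 34.4%.

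Along chromosome 4 the medians of H3K27me3 were low in the first and last segments and higher between them, with tall narrow peaks, and within the last segment the level rose again over the outermost windows, to 0.270 in yw and 0.370 in SuUR at 1295000. Divided into 5 segments of 51 windows in order of position, the H3K27me3 medians were −0.375, −0.160, −0.050, 0.020 and −0.315 in yw, from the centromeric side outward. In SuUR the corresponding medians were −0.370, −0.295, −0.110, 0.010 and −0.350. H3K27me2 followed the same broad course in yw, with −0.180, −0.065, 0.005, 0.080 and −0.100. In SuUR its segments stood at −0.105, 0.110, 0.085, 0.020 and −0.025, so that its highest segment was segment 2, where that of yw was segment 4.

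The 3 separate windows of highest H3K27me3 were centred at 715000, 1025000 and 540000. The window at 715000 held 0.890 in yw and 1.030 in SuUR, with H3K27me2 at 0.085 and −0.140. The window at 1025000 held 0.510 in yw and 0.940 in SuUR, and the window at 540000 held 0.580 and 0.745. As deposited all 3 were higher in SuUR, and they lie in or beside SNR 2, SNR 4 and SNR 1.

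The lowest H3K27me3 lay near the centromeric end. The window at 50000 held −1.005 in yw and −0.525 in SuUR, and the window at 110000 held −0.890 and −0.765. Another low window, at 1060000, held −0.580 and −0.530. In yw the minima at 50000 and 110000 were narrow: the windows at 40000 and 55000 stood at −0.070 and −0.345, and those at 100000 and 115000 at −0.375 and −0.470.

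The highest and lowest H3K27me2 lay at other places than the H3K27me3 peaks. The separate windows of highest H3K27me2 were centred at 25000, with 0.450 in yw and 0.355 in SuUR, at 1190000, with 0.235 and 0.280, and at 630000, with 0.190 and 0.195. The lowest were at 65000, with −0.305 in yw and −0.770 in SuUR, at 1240000, with −0.290 and −0.485, and at 210000, with −0.30 and −0.285. None of these 6 windows was centred in an SNR, and those at 1190000, 630000 and 210000 differed little between the genotypes.

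**Figure D3:**
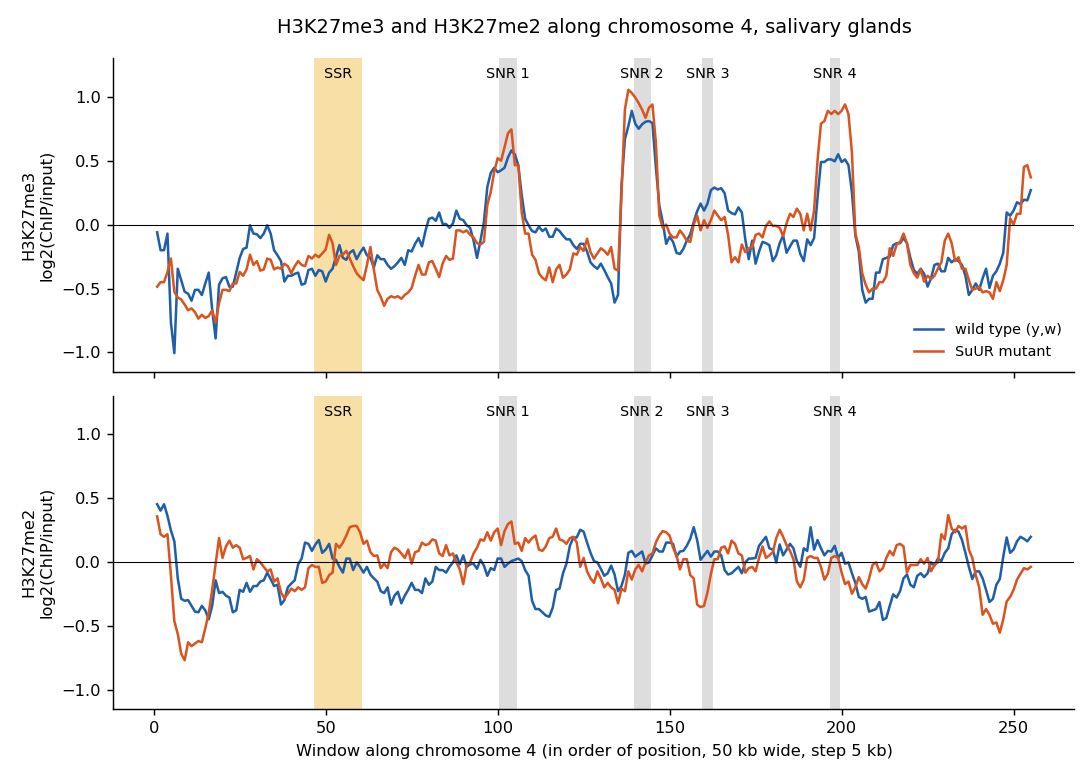
H3K27me3 and H3K27me2 log2 ChIP/input in yw and SuUR over the 255 windows of chromosome 4 in order of position, with the study's SSR shaded in yellow and its SNRs in grey. Tall H3K27me3 peaks stand at SNR 1, SNR 2 and SNR 4 in both genotypes, with tops of 0.580 to 1.055 at SNR 1 and SNR 2, whereas H3K27me2 runs between −0.770 and 0.450.

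Windows low in H3K27me3 in both genotypes were more frequent here than on the arms. The lowest 10% of arm windows ended at −0.390 for H3K27me3 in yw and at −0.335 in SuUR. Below both limits were 33 windows of chromosome 4 (12.9%), against 3.26% of arm windows. The longest run held the 8 windows from 60000 to 95000, with mean H3K27me3 of −0.516 in yw and −0.674 in SuUR. The last 5 of these, from 75000 to 95000, were also in the lowest 10% for H3K27me2 in both genotypes, with means of −0.371 and −0.614. They were the only windows of chromosome 4 in the lowest 10% of all 4 profiles, and they formed 1 run of overlapping windows. Their share was 2.0% of the chromosome, against 0.933% of arm windows. For H3K27me2 the order of the shares was reversed: 6 windows (2.35%) were in the lowest 10% in both genotypes, against 4.46% of arm windows. The comparison with the ends of the arm distribution was chosen after the values were seen.

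The highest 10% of arm windows began at 0.280 for H3K27me3 in yw and at 0.435 in SuUR. On chromosome 4, 26 windows (10.2%) passed both limits, against 6.41% of arm windows, and they formed 3 runs, at 520000 to 550000, 705000 to 750000 and 990000 to 1030000. High H3K27me2 was nearly missing: 1 window (0.392%), centred at 25000 beside the centromeric end, was in the highest 10% in both genotypes, against 2.38% of arm windows.

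SNR 1 (520630 to 546410) carried mean H3K27me3 of 0.505 in yw and 0.606 in SuUR over the 5 windows centred in it. SNR 2 (719040 to 741070, 5 windows) carried 0.788 and 0.919. SNR 4 (1001400 to 1017820, 3 windows) carried 0.518 and 0.873. For comparison, the 146 arm SNRs had medians of 0.589 in yw and 0.852 in SuUR. Their quartiles were 0.270 and 0.948 in yw, and 0.483 and 1.08 in SuUR, and these 3 regions lay between the quartiles in both genotypes. SNR 3 (819530 to 834930, 3 windows) stood apart, with 0.182 in yw and 0.015 in SuUR. In yw 27 of the 146 arm SNRs were lower than it, and in SuUR 10 were.

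The difference between genotypes was also unlike in SNR 3. As deposited, yw minus SuUR for H3K27me3 was −0.101 in SNR 1, −0.131 in SNR 2 and −0.355 in SNR 4, but it turned to 0.059 in SNR 1 and 0.0175 in SNR 2 when quantile normalization was redone over the arms and chromosome 4 alone, while SNR 4 stayed at −0.201. In SNR 3, yw minus SuUR was 0.167 as deposited, and 137 of the 146 arm SNRs had a smaller value. Among the arm SNRs as deposited 15.8% (23 of 146) were higher in yw, and their median difference was −0.204. The arm SNRs were not recomputed after renormalization.

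H3K27me2 differed between the genotypes in SNR 1 and SNR 3, in each with the same sign as H3K27me3 as deposited. SNR 1 held −0.0020 in yw and 0.224 in SuUR, and 134 of 146 arm SNRs had less H3K27me2 in SuUR. SNR 3 did the opposite, with 0.058 in yw and −0.227 in SuUR, and its difference of 0.285 was above that of 134 arm SNRs. In SNR 2 it was 0.032 in yw and −0.023 in SuUR, and in SNR 4 it was 0.078 and 0.035, differences of about the size of the median step between neighbouring windows.

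The H3K27me3 peaks were 8 to 11 windows wide at 50% of their own top value. Each window was 50 kb wide in steps of 5 kb, while SNR 1, SNR 2 and SNR 4 were 25.8, 22.0 and 16.4 kb long. A source shorter than a window would itself spread over about 10 windows, so these widths do not give the size of the marked domains. The peak at SNR 1 covered 10 windows in yw and 8 in SuUR, that at SNR 2 covered 10 in both, and that at SNR 4 covered 9 and 11. The midpoint of the peak at SNR 2 was offset by −2.56 kb from the midpoint of the region in both genotypes and that at SNR 4 by 0.39 kb, while at SNR 1 the offset was −6.02 kb in yw and −1.02 kb in SuUR and at SNR 3 it was 10.3 kb in both. The position given in the files was read as the window centre. SNR 3 had no such peak in SuUR, where its top was 0.110, against 0.290 in yw at 835000.

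**Figure D4:**
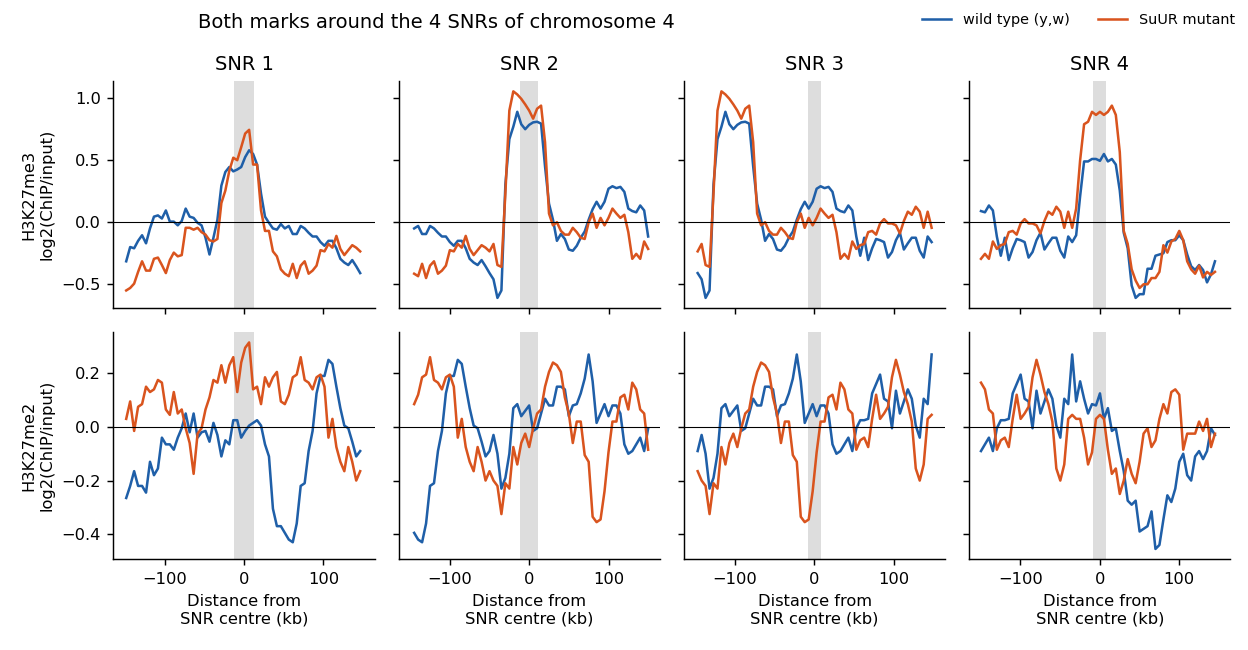
Both marks in yw and SuUR around the 4 SNRs of chromosome 4, as log2 ChIP/input against distance from the middle of the SNR in kb, with the SNR shaded. H3K27me3 peaks at SNR 1, SNR 2 and SNR 4 and stays low at SNR 3, with a mean of 0.182 in yw and 0.015 in SuUR.

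The single SSR (251480 to 323229, 14 windows) was low in H3K27me3 already in yw. Its mean was −0.296 in yw and −0.251 in SuUR, and 5 of the 187 arm SSRs were lower in yw and 5 in SuUR. The arm SSRs had medians of 0.0029 in yw and 0.052 in SuUR. As deposited, the difference of −0.045 in the SSR of chromosome 4 was near the median of −0.045 for arm SSRs. In the SSR of chromosome 4 it turned to 0.0034 with quantile normalization redone over the arms and chromosome 4. It turned to 0.010 with each profile centred on its autosomal arm median. The arm SSRs were not recomputed under these scalings. H3K27me2 in the SSR of chromosome 4 was 0.033 in yw and 0.077 in SuUR.

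Most of chromosome 4 lay outside these lists, and there H3K27me3 was lower in SuUR. The 175 windows that overlapped neither kind of region (68.6%) had a median of −0.220 in yw and −0.325 in SuUR, and 112 of them (64.0%) were higher in yw. Arm windows outside the lists had medians of −0.195 and −0.125, with 32.7% higher in yw. H3K27me2 went the other way in these windows of chromosome 4, from −0.090 in yw to 0.020 in SuUR, against −0.085 and −0.055 on the arms.

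Over all 255 windows H3K27me3 was a little higher in yw, opposite to the arms. The median of yw minus SuUR was 0.04 (SD over windows 0.20, with windows from −0.50 to 0.505), against −0.075 on the arms and 0.453 on the Het scaffolds. Of the windows 146 (57.3%) were higher in yw, while the share over all windows of the series was 43.0%. Among the 90 arm stretches 86 had a lower median difference. Every one of the 5 large arms had a negative median, from −0.09 on 3R to −0.05 on X, and of the Het scaffolds XHet was nearest to chromosome 4, at 0.005.

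For H3K27me3, windows that differed by at least 0.25 log2 units were 66 on chromosome 4 (25.9%), beside 38.5% in the series and 32.5% on the arms. Of these 42 windows (16.5%) were higher in yw, beside 16.8% in the series and 9.09% on the arms, and 24 windows (9.41%) were higher in SuUR, beside 21.7% and 23.4%. The split shifted with the scaling: it was 79 to 3 with quantile normalization redone over the arms and chromosome 4, and 62 to 12 with profiles centred on the autosomal arm median. After renormalization the windows past 0.25 in either direction were 32.2% on chromosome 4 and 29.3% on the arms, so the order of the shares as deposited turned. Under both scalings the median difference stayed positive, at 0.105 and 0.095, with the arms at −0.0125 and −0.020.

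As deposited, the windows past the threshold that were higher in yw for H3K27me3 fell into 13 runs and those higher in SuUR into 9. The longest run higher in yw held the 9 windows from 415000 to 455000, with means of 0.019 in yw and −0.313 in SuUR. It contained the window with the largest excess in yw, at 435000, which held 0.095 against −0.410. A second excess, at 870000, was 0.135 against −0.295, in a run of 4 windows from 860000 to 875000 that followed SNR 3. The longest run higher in SuUR held the 11 windows from 985000 to 1035000, with means of 0.452 in yw and 0.806 in SuUR, and it was the peak of SNR 4. The largest single excess in SuUR, −0.50, was at 45000, where the narrow yw minimum began with −0.765 against −0.265. With quantile normalization redone over the arms and chromosome 4, 3 windows of the whole chromosome were higher in SuUR by at least 0.25. The run of 11 windows therefore did not persist at that length, while SNR 4 kept a mean difference of −0.201.

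For H3K27me2 the direction over chromosome 4 was reversed. The median of yw minus SuUR was −0.045 (SD over windows 0.24, with windows from −0.615 to 0.625), against 0.005 on the arms and −0.035 on the Het scaffolds. Only 113 windows (44.3%) were higher in yw, beside 49.9% in the series. A difference of at least 0.25 was seen in 28 windows (11.0%) higher in yw, beside 15.3%, and in 53 windows (20.8%) higher in SuUR, beside 15.4%. Together these were 81 windows (31.8%), close to the 30.7% of the series.

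The H3K27me2 differences lay at several places, some of which overlapped the runs of H3K27me3. The 53 windows higher in SuUR formed 13 runs, of which the longest held the 12 windows from 560000 to 615000, with means of −0.279 in yw and 0.167 in SuUR. Over this run H3K27me3 was higher in yw, by a mean of 0.269. The window at 595000 in this run held −0.430 in yw and 0.185 in SuUR, and another at 140000 held −0.380 and 0.130. Higher levels in yw were found at both ends, in runs of 8 windows from 45000 to 80000 and from 1245000 to 1280000, with mean differences of 0.40 and 0.37. The window at 50000 held 0.160 in yw and −0.465 in SuUR, and so joined the largest H3K27me2 excess in yw to one of the largest H3K27me3 deficits. A shorter run of 6 windows from 800000 to 825000, with a mean difference of 0.38, reached into SNR 3, with 0.170 in yw and −0.335 in SuUR at 810000.

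**Figure D5:**
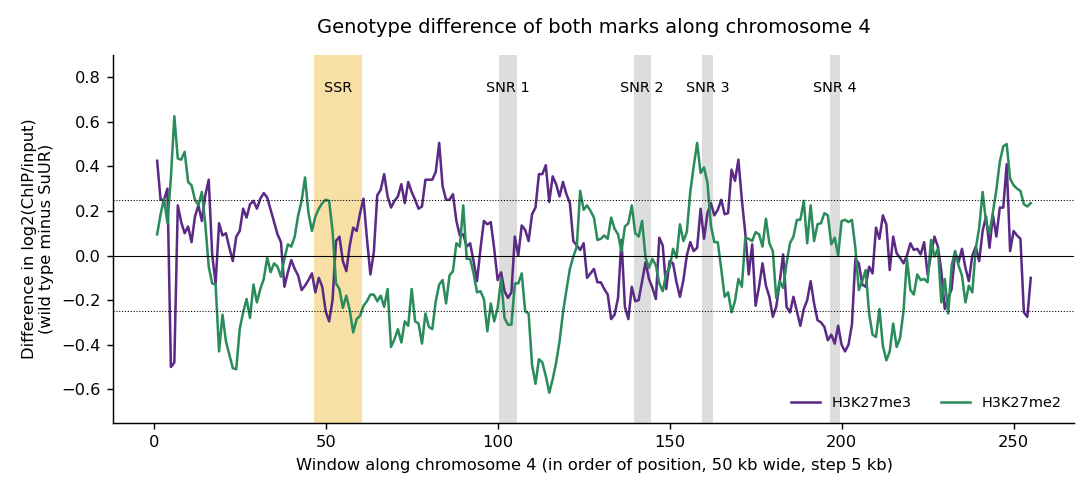
Difference between genotypes (yw minus SuUR, log2 units) over the windows of chromosome 4 in order of position for H3K27me3 (purple) and H3K27me2 (green), with dotted lines at 0.25 and −0.25 and the SSR and SNRs shaded. Between the SSR and SNR 1 the lines run apart over much of the way but meet or cross from 460000 to 490000, with medians of 0.155 for H3K27me3 and −0.205 for H3K27me2 in segment 2.

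Put together, the marks as deposited moved apart between the genotypes on much of chromosome 4. In 99 windows (38.8%) H3K27me3 was higher in yw and H3K27me2 higher in SuUR, against 18.4% of arm windows and 42.3% of Het windows. With at least 0.25 required of each mark, 15 windows (5.88%) did so, against 1.35% of arm windows and 17.4% of Het windows. Both marks higher in SuUR were seen in 39 windows (15.3%), against 30.3% of arm windows. The reverse combination, H3K27me3 higher in SuUR and H3K27me2 higher in yw, was seen in 65 windows (25.5%), against 31.1% of arm windows. With at least 0.25 in each mark it was seen in 3 windows (1.18%), against 2.86% of arm windows. The pattern was strongest in segment 2 (280000 to 530000). There 42 of 51 windows (82.4%) were higher in yw for H3K27me3, against 37.15% of arm windows. For H3K27me2, 4 windows (7.84%) were higher in yw, against 50.02% of arm windows.

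In segment 4 (790000 to 1040000) the median differences of both marks had the opposite signs. There 19 windows (37.3%) were higher in yw for H3K27me3, with a median difference of −0.12. That share was close to the 37.15% of arm windows, whose median difference was −0.075. For H3K27me2, 39 windows (76.5%) were higher in yw, against 50.02% of arm windows. The median difference was 0.08, against 0.005 on the arms. Segment 4 thus departed from the arms mainly in H3K27me2. Segment 1 was higher in yw for both marks, by 0.10 and 0.085. In segments 3 and 5 the medians were −0.03 and 0.015 for H3K27me3 and −0.015 and −0.085 for H3K27me2. As deposited, the genotype difference of chromosome 4 was therefore not uniform, and the small medians over all 255 windows covered stretches of opposite sign. The segment values were not recomputed under the other scalings.

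Agreement between the genotypes along the chromosome was close for H3K27me3 and loose for H3K27me2. With windows taken 50 kb apart, so that they shared no DNA (25 or 26 windows, median over the 10 possible starts), Pearson's r between yw and SuUR was 0.86 for H3K27me3. It was 0.565 once windows that overlapped an SNR were left out, so much of it rested on the peaks. For H3K27me2 r was 0.23, from 0.075 to 0.42 over the starts, and 4 of the 90 arm stretches had a lower value. The differences of the 2 marks had r of −0.34, from −0.56 to −0.23, against −0.05 to 0.03 on the arms, and 2 of the 90 stretches were lower. These points share libraries, input and quantile normalization, and no p is given for them.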

How the data were processed

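Salivary gland ChIP-seq profiles of H3K27me3 and H3K27me2 in yw and SuUR were used, 4 profiles from 8 of 20 libraries. The authors mapped reads to dm3 (Release 5) with MOSAIK, scaled ChIP and input to RPM, and deposited log2 ratios in 50 kb windows placed every 5 kb, quantile normalized between genotypes within each mark per the file headers. Pooling of libraries and counts per window are not given in the sources used here, so depth and counting error are unknown. Tissue identity could not be checked, since no expression was measured.

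Medians, shares, runs and differences (yw minus SuUR) were computed in Python 3.11.15 with numpy 2.4.6, pandas 2.3.3 and scipy 1.17.1, and drawn with matplotlib 3.10.9. No tests were run, since each group had 1 profile per mark. The script was tested on simulated data. A difference of 0.25 was the threshold. Windows named were the 3 highest and 3 lowest non-overlapping windows of each mark by the mean of both genotypes, the 2 largest differences in each direction, the runs past the threshold, and the listed SSR and SNRs. The window set and lists were chosen with earlier results of these data known. Alternatives were other thresholds, means, percentile ranks and linear ratios, other sets of arms and scaffolds, ends or listed regions left out, every 10th window, renormalization over the arms and chromosome 4, and centring on autosomal arms. Renormalization and centring for the SSR and SNRs, and the comparison with arms outside the lists, were added after seeing the data. Coordinates are those of the files. Gene names and sequences were not used here.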

Additional observations from a re-analysis of the deposited data

How the results depend on the processing

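Of 101 comparisons of a main value with an alternative, 93 kept their direction and stayed within the spread used to judge them. The H3K27me3 median difference on chromosome 4 stayed between 0.030 and 0.105 and that of H3K27me2 between −0.06 and −0.037. The gap of chromosome 4 to the Het scaffolds for H3K27me3 in SuUR, −0.005, became 0.086 with means and 0.060 with U added. The gap to the arms for H3K27me2 in SuUR, 0.015, became −0.0071 with means and −0.012 with linear ratios. With listed regions left out, the H3K27me3 gap to the arms in yw, −0.07, was −0.12 when this was done on chromosome 4 alone and −0.025 when done on both. The count of windows past the threshold went from 66 to 129 at 0.15 and to 2 at 0.5 for H3K27me3, and from 81 to 150 and to 9 for H3K27me2, by construction. With quantile normalization redone over the arms and chromosome 4, H3K27me3 differences became 0.059 in SNR 1, 0.0175 in SNR 2 and 0.0034 in the SSR, which was 0.010 with centring. SNR 4 stayed negative and SNR 3 positive. With 1 profile per genotype and mark, no spread between animals is known, and unknown depth limits narrow minima such as those at 50000 and 110000 most.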

Other observations

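The outer end of chromosome 4 differed from the windows before it. In the window at 1295000, the last of the profile, H3K27me3 was 0.270 in yw and 0.370 in SuUR, while at 1245000 it was −0.365 and −0.450. H3K27me2 in the last window was 0.195 in yw and −0.040 in SuUR. The opposite end, at 25000, had H3K27me3 of −0.060 in yw and −0.485 in SuUR beside the highest H3K27me2 of the chromosome. The ends were thus unlike in both marks, and no replicate is at hand to measure their error.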
